A study of Mus musculus with 6 samples.

Results

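The 686 regions described here were promoter peaks of host cell factor C1 (HCFC1) that appeared in mouse hepatoma cells only after knockdown of ERRα. They were chosen by measured values, namely the presence and position of called peaks in the 3 lists. A member was a row of the deposited ERRα-knockdown list whose annotation began with promoter-TSS, where no row of the control list and no row of the HCFC1-knockdown list overlapped it by 1 bp. They made up 12.8% of the 5375 promoter peaks of the ERRα-knockdown list and belonged to 70638 peaks in the 3 lists together. Of the other promoter peaks of that list, 4571 overlapped a control peak and 118 overlapped an HCFC1-knockdown peak but no control peak.

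Chromatin immunoprecipitation followed by sequencing (ChIP-seq) located HCFC1 in Hepa1-6, an established line grown from a mouse liver tumour. The cells had received siControl, siERRa or siHCFC1, each given at 100 nM and again after 48 h, for a total of 200 nM over 96 h. One HCFC1 library was made per condition, so each group held 1 library, and per the deposited notes it pooled 2 independent immunoprecipitations. The 3 matching libraries made with non-specific IgG were not analysed here. No condition had a replicate, so no test between conditions could be made, and the intervals given below cover counting error over peaks only.

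HCFC1 is a large nuclear protein without a DNA-binding domain of its own. It is brought to promoters by sequence-specific factors and bridges them to enzymes that modify histones and to O-GlcNAc transferase. ERRα, an orphan nuclear receptor encoded by Esrra, binds an extended AAGGTCA half-site and is known in liver and muscle as a regulator of mitochondrial and fatty acid metabolism.

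The top of the list is shown first as DNA, because the promoters under the strongest new peaks had different base compositions. The windows below, taken from RefSeq (GRCm38.p6, the RefSeq form of mm10), run from 250 bp before to 50 bp after the annotated start, 5′ to 3′ on the strand of the gene. Capitals mark the GC box GGGCGG, the ETS motif CCGGAAGT or the NRF1 motif on either strand. The window of Trappc12 lies on the minus strand at chr12:28750351-28750650 and holds CCGGAAGT once. The window of Csgalnact2, at chr6:118139091-118139390 on the minus strand, repeats GGGCGG. The Ppara window, at chr15:85735526-85735825 on the plus strand, was the most GC-rich of these at 74.7% GC. The Plpp7 window, at chr2:32095278-32095577 on the plus strand, holds none of the 3 capitalised motifs.
Trappc12: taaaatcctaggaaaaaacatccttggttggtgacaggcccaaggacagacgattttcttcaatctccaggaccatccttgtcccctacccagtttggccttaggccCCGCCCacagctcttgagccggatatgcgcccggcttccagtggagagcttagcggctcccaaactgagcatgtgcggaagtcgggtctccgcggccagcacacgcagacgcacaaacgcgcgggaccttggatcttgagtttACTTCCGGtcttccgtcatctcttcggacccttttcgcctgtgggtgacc
Csgalnact2: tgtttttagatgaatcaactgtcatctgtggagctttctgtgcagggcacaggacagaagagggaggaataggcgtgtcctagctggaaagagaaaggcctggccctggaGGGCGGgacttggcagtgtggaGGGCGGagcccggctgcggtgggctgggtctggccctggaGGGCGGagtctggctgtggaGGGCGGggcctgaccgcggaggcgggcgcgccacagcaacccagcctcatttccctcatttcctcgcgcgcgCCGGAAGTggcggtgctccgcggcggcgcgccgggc
Ppara: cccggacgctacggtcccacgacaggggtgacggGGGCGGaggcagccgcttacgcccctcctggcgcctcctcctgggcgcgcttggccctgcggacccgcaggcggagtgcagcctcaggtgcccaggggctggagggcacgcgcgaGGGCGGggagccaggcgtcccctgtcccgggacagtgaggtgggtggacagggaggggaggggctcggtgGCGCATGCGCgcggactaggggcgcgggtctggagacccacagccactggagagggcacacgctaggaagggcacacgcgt
Plpp7: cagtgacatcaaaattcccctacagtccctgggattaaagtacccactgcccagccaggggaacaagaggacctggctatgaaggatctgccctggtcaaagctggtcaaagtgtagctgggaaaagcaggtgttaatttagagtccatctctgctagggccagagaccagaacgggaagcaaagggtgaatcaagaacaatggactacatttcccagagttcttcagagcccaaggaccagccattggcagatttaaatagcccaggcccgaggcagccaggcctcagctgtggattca
CpG observed/expected, the number of CG pairs relative to the number that the C and G content would give, was 0.789 for Trappc12, 0.75 for Csgalnact2 and 0.736 for Ppara. It was 0.1 for Plpp7.

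The new peaks were weak. Their score, the authors' own value per peak on a scale not given in the sources used here, ran from 13 to 198 with a median of 36 and quartiles of 26 and 51. Promoter peaks that overlapped a control peak ran from 13 to 42521 with a median of 255. The 118 that overlapped an HCFC1-knockdown peak but no control peak were weak too, from 13 to 152 with a median of 52.5. Only 26 new peaks scored 100 or more, and 10 had the lowest score, 13. Another 2669 promoter peaks of the list scored above the strongest new peak.

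The share of new peaks fell from band to band of score. Among promoter peaks scoring 13 to 25, 169 of 252 were new (67.1%, exact Clopper-Pearson 95% interval 60.9 to 72.8). In the band from 26 to 50 it was 339 of 699 (48.5%, 44.7 to 52.3), and from 51 to 100 it was 153 of 852 (18.0%, 15.4 to 20.7). From 101 to 198, the score of the strongest new peak, it was 25 of 903 (2.77%, 1.8 to 4.06). The intervals of these 4 bands did not overlap. The 2669 peaks above that score held no new peak by the way the band was set.

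**Figure D1:**
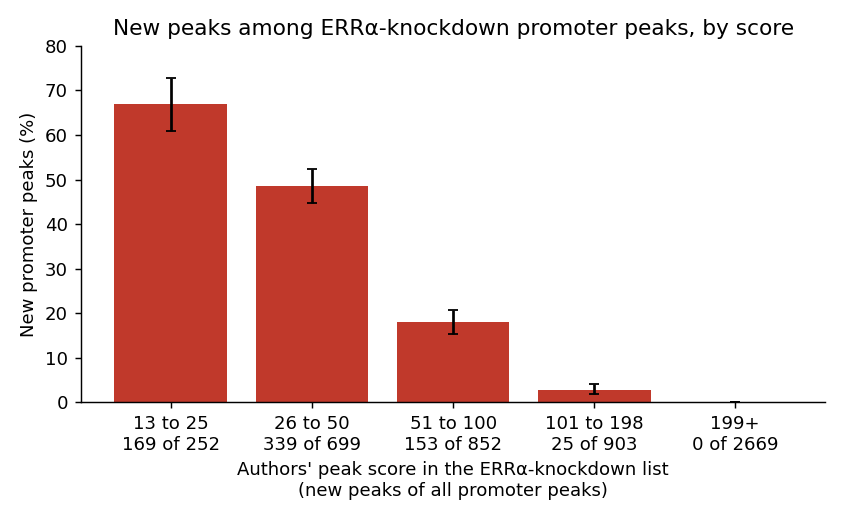
Share of new peaks among ERRα-knockdown promoter peaks (y axis, percent) in 5 bands of the authors' peak score (x axis); error bars are exact Clopper-Pearson 95% intervals. The share falls from 67.1% in the lowest band to 2.77% at 101 to 198; the last band starts above the strongest new peak and so holds none.

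Score levels differed between whole lists too. Promoter peaks had a median score of 196 in the ERRα-knockdown list, 96 in the control list and 51 in the HCFC1-knockdown list, and median widths of 1223, 919 and 637 bp. No source used here says whether scores can be compared between lists. Where an ERRα-knockdown promoter peak scoring 101 to 198 overlapped a control peak, the control peak had a median score of 76. In the band from 26 to 50 that median was 38. The part that the different score levels of the lists played in the number of new peaks was not tested.

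New peaks were also narrow. Their width had a median of 424 bp (270 to 3394), against 1389 bp for the promoter peaks overlapped by a control peak. Within the band from 26 to 50 the medians of these groups were 397 and 553.5 bp. Over all scores the 118 peaks that overlapped an HCFC1-knockdown peak but no control peak had a median of 562 bp. A narrow peak has less room to overlap another one, and the part of width in the selection was not tested. Across the 686 new peaks the Spearman correlation of score with width was 0.39, that with the distance from the start was -0.14 and that with the gap to the nearest control peak was 0.02. These points share 1 library.

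The strongest new peak, scored 198, was centred at -9 bp from the start of Trappc12, at chr12:28750069-28750738. Trappc12 encodes a subunit of a TRAPP complex, which tethers vesicles in the secretory pathway. No control peak was assigned to Trappc12, and the nearest one, scored 81, lay 861 bp away in the 5′ UTR of the neighbouring gene Eipr1. The peak of Csgalnact2, an enzyme that starts and extends chondroitin sulfate chains, scored 180 at chr6:118138723-118139590. Its nearest control peak was 57188 bp away, in an exon of Ret. The control list thus came far closer to the first of these peaks than to the second.

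Gm13290 and Rnf32 followed with a score of 151 each. The Rnf32 peak, at chr5:29195344-29195881, had a control peak of score 28 in an intron of the same gene only 190 bp away. Gnpnat1, Arid1a and Pnrc2 had a score of 141. Gnpnat1, which makes an intermediate of UDP-GlcNAc, had no control peak of its own, and the nearest of another gene was 36773 bp away. Arid1a, a subunit of the SWI/SNF chromatin remodelling complex, had 3 control peaks, of which the nearest was another promoter peak 1983 bp away with a score of 114. Pnrc2, a nuclear receptor coactivator, had 1 control peak of score 20 at a gap of 2301 bp.

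The next in order were Uvssa, a transcription-coupled repair factor, with a score of 135 and 1600014C23Rik with 127. Smpd2, a sphingomyelinase, Alg6, a glucosyltransferase of N-glycan assembly, and Pls1, an actin-bundling plastin, had a score of 123 each. Cyhr1 had a score of 119, Tmcc2 117 and Plpp7 115, a score that Ppm1m, the next in order, shared. Of the 15 strongest peaks, Trappc12, Csgalnact2, Gm13290, Gnpnat1, Uvssa, Smpd2, Alg6 and Pls1 had no control peak assigned to the gene. Gm13290 and Gm13285, which also had a new peak (score 23), carry names of predicted genes in the same stretch of chromosome 4. Reads from near-identical copies cannot be placed with certainty, so peaks at such genes are uncertain.

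The edge of the selection was finely drawn. The new peak of 1700003M07Rik, scored 29, ended 1 bp from a control promoter peak of the same gene scored 39. The gap was 10 bp for Fdft1 and 22 bp for Mb21d2, Ankrd35, Mir7082 and Slc4a2. Just outside the selection, the promoter peaks of Nova2 and Cad overlapped a control peak by 2 bp, that of 4930404N11Rik by 6 bp, that of Gnb1l by 8 bp and that of Asgr2 by 11 bp. Their scores, from 23 for Cad to 91 for Gnb1l, lay within the range of the new peaks.

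From the new peaks to the nearest control peak the gap had a median of 3480 bp, with quartiles of 655 and 23260 bp. It was at most 100 bp for 20 peaks, at most 500 bp for 141 (20.6%) and at most 1000 bp for 217 (31.6%). For 58 peaks (8.46%) no control peak lay within 100000 bp. Among the 217 close pairs, the control peak carried an intron label in 73 cases, a promoter label in 71 and an exon label in 30.

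**Figure D2:**
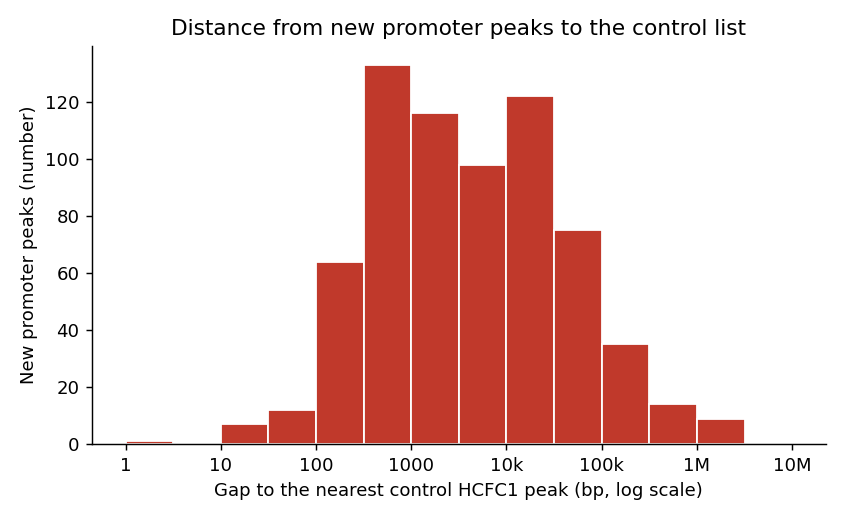
Number of new promoter peaks (y axis) by the gap to the nearest control HCFC1 peak (x axis, bp, log scale). Gaps spread from 1 bp to 2630580 bp, with 217 of 686 peaks at 1000 bp or less.

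Of the 5 most isolated new peaks, 4 lay on chromosome X. The peak of Wdr44, scored 29, was 2630580 bp from any control peak, and those of Fmr1, Rap2c and Tmem164 were 1797827, 1729394 and 1635921 bp away. Fmr1 encodes an RNA-binding protein that regulates translation in neurons, and Rap2c a small GTPase. The fifth was LOC100861615 on chromosome 14, at 1524966 bp. On chromosome X 22 of 103 ERRα-knockdown promoter peaks were new (21.4%, 13.9 to 30.5), the highest share of any chromosome tabulated, and on chromosome 19 it was 17 of 206 (8.25%, 4.88 to 12.9). The next highest shares were 16.9% on chromosome 7 and 16.5% on chromosome 4, whose intervals overlapped that of chromosome X.

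New peaks sat farther upstream than promoter peaks overlapped by a control peak. The median position of the centre relative to the assigned start was -117 bp, against -16 bp for peaks overlapped by a control peak. For the 118 peaks that overlapped an HCFC1-knockdown peak but no control peak it was -98 bp, close to that of the new peaks. The centre was within 100 bp of the start in 290 of 686 new peaks (42.3%, 38.5 to 46.1). Among peaks overlapped by a control peak this share was 53.7% (52.2 to 55.1). It was at least 500 bp upstream in 177 new peaks (25.8%, 22.6 to 29.2) against 7.0% (6.28 to 7.78). Within the score band from 26 to 50 the median centres were at -129 and -54 bp, and 28.0% (23.3 to 33.1) and 14.6% (10.9 to 18.9) lay at least 500 bp upstream. From 101 to 198 none of 25 new peaks did.

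**Figure D3:**
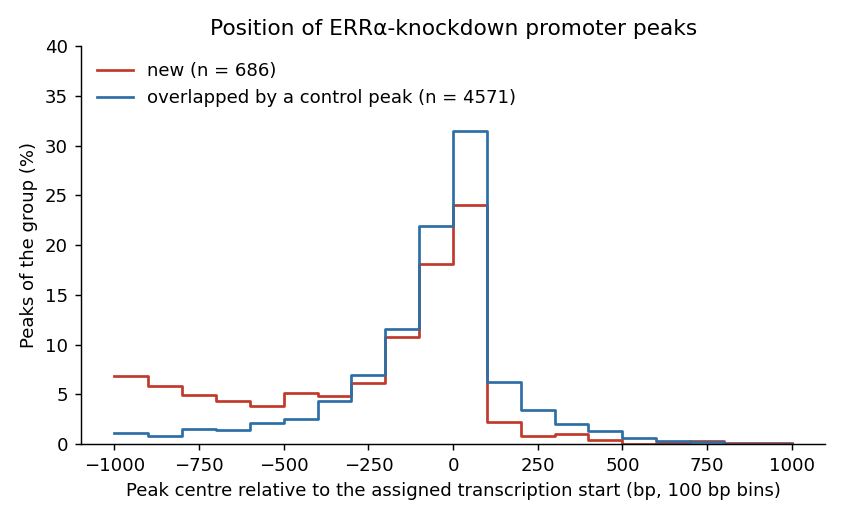
Position of the peak centre relative to the assigned transcription start (x axis, bp, bins of 100 bp) as a percentage of each group (y axis), for the 686 new promoter peaks and the 4571 overlapped by a control peak. Both groups crest next to the start, and new peaks have the larger share at 500 bp or more upstream (25.8% against 7.0%). The selection rule used overlap with the control list, and its part in this difference was not tested.

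A RefSeq start site of some gene lay inside 291 of the 667 new peaks that could be placed against the RefSeq promoter windows (43.6%, 39.8 to 47.5), against 82.9% of overlapped peaks (81.7 to 83.9). The 19 new peaks on chromosome 18 could not be placed, since these windows held none on that chromosome. The CpG and motif shares below, including those of all promoter windows, lack it too. Starts on both strands, as at a bidirectional promoter, lay inside 22 new peaks (3.3%, 2.08 to 4.95) against 24.4% (23.1 to 25.7). In the score band from 26 to 50 a start lay inside 41.0% (35.6 to 46.5) and 65.5% (60 to 70.7), and starts on both strands inside 3.36% (1.69 to 5.94) and 7.59% (4.93 to 11.1), where the latter intervals overlapped. Wider peaks cover more starts, and the part of width in these shares was not tested. New peaks that held a start had a median score of 41 and a median width of 514 bp, and the 376 without one had 35 and 380.5 bp.

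The new peaks were assigned to 672 distinct genes, and 1 peak, at chr11:5150002-5150321, had no gene. Protein-coding genes took 603 of 685 peaks (88.0%, 85.4 to 90.4), a smaller share than the 94.0% (93.2 to 94.6) of promoter peaks overlapped by a control peak. Non-coding RNA genes took 77 (11.2%, 8.97 to 13.8) against 5.28% (4.65 to 5.96), pseudogenes took 4 and a snoRNA gene took 1. Within the score band from 26 to 50 the intervals of the protein-coding shares overlapped, as plotted in the comparison of properties.

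MicroRNA genes accounted for 37 of the new peaks (5.4%, 3.83 to 7.37), against 1.18% (0.889 to 1.54) of overlapped peaks. In the score band from 13 to 25 the shares were 6.51% (3.29 to 11.3) and 1.54% (0.0389 to 8.28), with overlapping intervals. In the score band from 26 to 50 the shares were 6.21% (3.89 to 9.34) and 1.55% (0.506 to 3.59). From 51 to 100 they were 3.27% and 2.77%, with overlapping intervals, and from 101 to 198 they were 0 of 25 and 1.74%. These 37 peaks belonged to 36 genes, counted by a name that starts with Mir. Mature sequences were in the RefSeq table for 30 genes with a new peak. They include the predicted gene Gm23363 (mmu-miR-3154), which is not among the 36. Together they gave 55 mature arms with 55 distinct seeds, bases 2 to 8, and 0 seeds shared between genes. The peak of Mir343, scored 91 and centred at -836 bp, was the strongest at any non-coding gene, followed by 1700031P21Rik and Gm12610 (88 each), the pseudogene Gm13238 (82) and Gm32755 (80). Mir195a, of the miR-15/16 family that restrains the cell cycle, had a peak of score 47 and no control peak. Mir196b, which lies in the HoxA cluster and targets Hox transcripts, had a peak of score 44 and likewise no control peak. The latter pair and Mir99b (score 19) were named after their values were seen. The arms below show how these microRNAs differ in the seed, in capitals.
mmu-miR-343: uCUCCCUUcaugugcccaga
mmu-miR-195a-5p: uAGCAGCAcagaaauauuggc
mmu-miR-196b-5p: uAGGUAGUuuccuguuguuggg
mmu-miR-99b-5p: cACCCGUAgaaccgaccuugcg
Many mouse microRNAs lie inside or beside other genes, so a peak assigned to a microRNA may stand at the start of a host or neighbour.

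With the lists at their deposited lengths, the control list held another HCFC1 peak of the same gene for most new promoter peaks. A control peak that did not overlap the new one was assigned to the same gene for 443 of 685 peaks (64.7%, 61 to 68.3). With every list shortened by score to 12610 peaks, the length of the shortest, it was 21.9%, a minority. For promoter peaks overlapped by a control peak, a further control peak of the gene was present in 51.4% (50 to 52.9). Of all 21900 protein-coding RefSeq genes, 57.7% had a control peak. In the score band from 26 to 50 the intervals of the shares of new and overlapped peaks overlapped.

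A further control peak at a promoter of the same gene was present for 95 new peaks (13.9%, 11.4 to 16.7), against 3.96% (3.42 to 4.57) of overlapped peaks and 23.5% of all protein-coding genes. In the score band from 26 to 50 the shares were 15.7% (12 to 20) and 6.83% (4.33 to 10.2). They were 9.15% and 7.38% from 51 to 100, and 4.0% and 4.86% from 101 to 198, with overlapping intervals. For an overlapped peak the control peak it overlaps was not counted, whereas for a new peak every control promoter peak of the gene was, so the selection rule sets part of this difference and nothing is read from it. For 39 of these 95 it was at the same annotated start, so that the control and ERRα-knockdown peaks stood beside each other at 1 promoter. Fdft1, the squalene synthase of cholesterol synthesis, was such a case, with a control promoter peak of score 28 at 10 bp from the new peak of score 49. Sorbs3 had 3 new promoter peaks, scored 56, 29 and 23, and a control promoter peak of score 40 between 130 and 1101 bp away from them. It was the only gene with 3, and Arhgap45, C77080, Cited1, Espn, Hpn, Mir6968, Osbpl5, Shisa5, Snx10, Syt2 and Zmynd8 had 2 each.

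The strongest control peak of the gene lay in an intron for 171 of the 443 peaks, between genes for 100, in an exon for 59 and at a promoter for 59. Its median score was 45 (13 to 1794), and its median gap to the new peak was 3446 bp. Apoa2, an apolipoprotein of high-density lipoprotein made by hepatocytes, had the highest such score, 1794, at a 5′ UTR 1919 bp from its new peak of score 38. Rpl21, a protein of the large ribosomal subunit, had a control peak of 1089 in an intron 421 bp from its new peak of 55. Deptor, an inhibitor of mTOR, had 1050 and a new peak of 28. Tle2, a corepressor, had 878 and a new peak of 83, and Coq10a, a coenzyme Q-binding protein, had 870 and a new peak of 32. These genes were chosen for their control peaks, and scores of different lists are not compared.

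No control peak was assigned to the gene for 242 new peaks (35.3%, 31.7 to 39). For 133 (19.4%, 16.5 to 22.6) there was in addition no control peak of any gene within 20000 bp. A peak of the same gene in the HCFC1-knockdown list was present for 233 (34.0%, 30.5 to 37.7), and another ERRα-knockdown peak of the gene for 359 (52.4%, 48.6 to 56.2). Since the selection barred overlap with the HCFC1-knockdown list, the former share is a description only. Both knockdown lists end 20 kb from a start, whereas control peaks of the gene were counted at any distance. The shares from different lists are therefore not compared. In 40 genes a new promoter peak stood beside a promoter peak of the same list that did overlap the control.

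**Figure D4:**
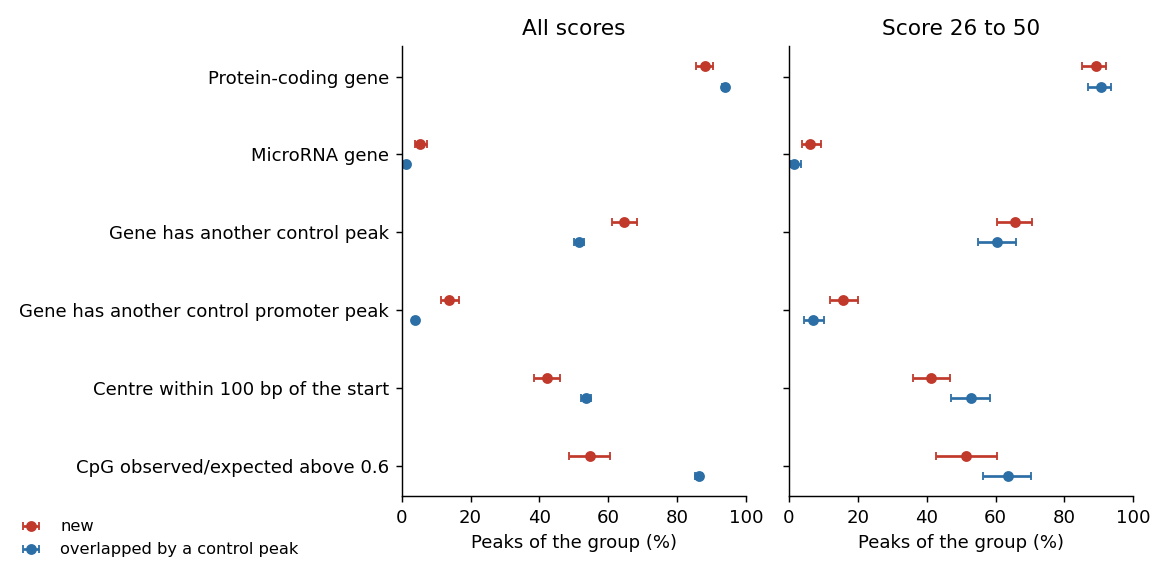
Share of peaks (x axis, percent) with each property (y axis) for new promoter peaks and promoter peaks overlapped by a control peak, at all scores (left) and at scores 26 to 50 (right); bars are exact Clopper-Pearson 95% intervals. Over all scores together, microRNA genes made up 5.4% of new against 1.18% of overlapped peaks; the control-peak rows are descriptions, since the selection rule used overlap with the control list.

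A new promoter peak was present at 591 of 21900 protein-coding genes (2.7%), which were 12.1% of the 4885 with any ERRα-knockdown promoter peak. Of 25 ERR targets and partners, 2 had one (8%), from 9 with any ERRα-knockdown promoter peak. Ppara, the fatty acid-sensing nuclear receptor that drives the fasting response of liver, had a peak of score 114 at chr15:85734769-85736137, with no control peak of the gene, the nearest of another gene being 21880 bp away. Vegfa, an angiogenic growth factor, had a peak of score 37, 354 bp from a control peak of score 18 in its 5′ UTR. A share from 25 genes rests on few peaks.

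In cholesterol and fatty acid synthesis 3 of 32 genes had a new peak (9.38%, against 2.7% of all protein-coding genes), from 11 with any ERRα-knockdown promoter peak. Besides Fdft1 these were Lss, lanosterol synthase, with a score of 60 and no control peak of the gene, and Pmvk, phosphomevalonate kinase, with a score of 37 and a control peak in an exon 11522 bp away. Of 45 genes of DNA replication and the cell cycle 2 had one (4.44%), from 19 with any ERRα-knockdown promoter peak. They were Ccnb1, the mitotic cyclin B1 (score 43), and Pola1, a subunit of DNA polymerase α (score 18). Neither had a control peak of its own. The shares of these lists rest on few genes, and nothing further is read from them.

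Among the mitochondrial lists, 1 of 98 oxidative phosphorylation genes had a new peak, Cox7a1, the muscle form of a cytochrome c oxidase subunit (score 27). Of 78 genes of the mitochondrial ribosome it was Mrpl28 (score 66), and of 99 of the cytosolic ribosome it was Rpl21. None of the 37 genes of the TCA cycle and fatty acid oxidation had one, although 13 of them had an ERRα-knockdown promoter peak, all overlapped by control. The same held for HCFC1 and its partners (0 of 33, with 17 overlapped) and for the circadian clock (0 of 22, with 12 overlapped). Stress response genes (0 of 25) and aminoacyl-tRNA synthetases (0 of 38) had none either. These shares, at or below the 2.7% of all genes, rest on few genes and read no further than that.

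Of 37 genes of hepatocyte identity, Apoa2 alone had a new peak. Of 397 zinc finger genes 13 did (3.27%), from 159 with any ERRα-knockdown promoter peak. Of 346 solute carriers also 13 did (3.76%), from 73 with any such peak. Among all protein-coding genes it was 591 from 4885. The solute carriers were led by Slc12a2, a sodium-potassium-chloride cotransporter (score 100), and Slc2a4, the insulin-responsive glucose transporter GLUT4 (score 71). Of 173 homeobox and developmental factors 3 did, Foxl2 (86), Foxi3 (79) and Hoxd1 (35). Single genes carried it among 163 genes of ubiquitin and the proteasome (Otud7a), 85 chaperones (Dnajb13) and 101 histone genes (Hist1h2bm). There was none at 1460 odour and pheromone receptors, and none at the markers of other cell types, that is 20 immune, 20 neuron, 16 muscle and 19 endothelial, stellate and biliary genes. The hepatocyte list had 4 genes with an ERRα-knockdown promoter peak, 3 of them overlapped by control. Binding at a promoter is not expression, and the identity of the cells cannot be checked from these lists.

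Over all scores, promoter windows of new peaks were less rich in CpG than those of overlapped peaks. A RefSeq window whose start lay inside the peak of its own gene was found for 284 new and 3534 overlapped peaks. The whole window lay inside the peak for 148 of the 284 new peaks. The other windows reached beyond the peak, so CpG values and motifs describe the promoter window and not only the peak. CpG observed/expected was above 0.6, a usual limit for a CpG island, in 155 of 284 (54.6%, 48.6 to 60.5) against 86.2% (85.1 to 87.4), and in 35.8% of all 32851 promoter windows. The medians were 0.64, 0.84 and 0.38. Within the score band from 26 to 50 the shares were 51.5% (42.7 to 60.3) and 63.5% (56.5 to 70.2), whose intervals overlapped. In the band from 51 to 100 they were 63.6% (51.9 to 74.3) and 79.0% (74.9 to 82.6), and from 101 to 198 they were 84.2% (60.4 to 96.6) and 88.2% (85.5 to 90.5).

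**Figure D5:**
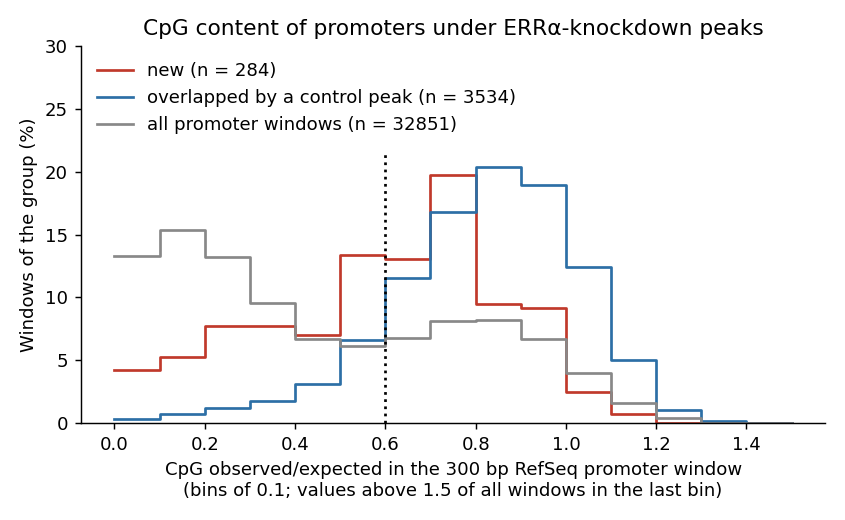
CpG observed/expected of the 300 bp RefSeq promoter window (x axis, bins of 0.1) as a percentage of each group (y axis) for new peaks, peaks overlapped by a control peak and all promoter windows; the dotted line marks 0.6. New peaks lie between the other groups, with 54.6% above the line against 86.2% and 35.8%.

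The 155 CpG-rich and 129 CpG-poor new promoters had different medians, with overlapping quartile ranges. The CpG-rich ones had a median score of 47 (quartiles 29.5 and 70). Their median gap to a control peak was 21050 bp (4407 and 65360). The CpG-poor ones had a median score of 36 (25 and 48) and a median gap of 4698 bp (1200 and 17660). All these peaks come from 1 library, and the selection rule used overlap with control peaks, so this is a description only.

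The ERR half-site AAGGTCA, searched on both strands, was in 15 of 284 windows of new peaks (5.28%, 2.99 to 8.56). It was in 2.07% (1.62 to 2.59) of windows of overlapped peaks and in 4.72% (4.49 to 4.95) of all promoter windows, so the new peaks were close to the background of all promoters. In the score band from 26 to 50 it was in 4.55% (1.69 to 9.63) of new and 1.97% (0.539 to 4.97) of overlapped windows, with overlapping intervals. From 51 to 100 it was in 8 of 77 (10.4%, 4.59 to 19.4) and 7 of 461 (1.52%, 0.613 to 3.1), and from 101 to 198 in 0 of 19 and 1.64%. The longer TCAAGGTCA was in 1 window, that of Syt2 (0.352%), against 0.113% and 0.423%. The 15 sites below carry AAGGTCA or its complement TGACCTT in capitals, with 9 bases on each side, read along the strand of the gene.
Tmem253: ccctcatagTGACCTTtgccccacc
Dnajb13: tgagctgtgTGACCTTtttcgggat
Tnxb: gaggggaacTGACCTTtactgagtc
Helb: caagagtcgTGACCTTtcaccacgt
Rabggtb: ttgctgctgTGACCTTtcctaacag
Neu2: aaacattccTGACCTTcagacctgc
1810013A23Rik: gccagcactAAGGTCActccagtac
Agbl2: tccgaccccTGACCTTtccttttca
Syt2: cagtttcccTGACCTTgacgggagg
Kif6: ggactcggaAAGGTCAagggtcagt
Amt: ggagaacttTGACCTTctggaggct
Bbs4: ctcacagccTGACCTTccactcaca
Cited1: ttaacgttgTGACCTTgggttaagt
Bcl2l1: ctggccatgTGACCTTggacaggct
Miip: ccgcgtgaaAAGGTCAaagttgccg
They lie upstream of the start except that of Kif6, whose position is +31. The Syt2 site continues into the longer motif, at -167. Dnajb13, a dynein-associated protein of motile cilia, Agbl2, a tubulin carboxypeptidase, Kif6, a kinesin, and Bbs4, a part of the BBSome of primary cilia, were among them. Amt encodes a part of the glycine cleavage system of mitochondria, Bcl2l1 an inhibitor of apoptosis, Helb a DNA helicase, Rabggtb a subunit of the enzyme that prenylates Rab proteins, Neu2 a sialidase and Tnxb a tenascin of the extracellular matrix. A match describes the letters and not binding of the receptor, and a site may lie outside the peak where the window reaches beyond it.

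The ZNF143 and THAP11 motif, known to bring HCFC1 to promoters in human and mouse cells, was rare in windows of new peaks. Within the bands of score given below it did not separate new from overlapped peaks. Its core ACTACAA was in 2 of 284 windows (0.704%, 0.0854 to 2.52), against 6.51% (5.72 to 7.37) of overlapped and 3.24% of all windows. In the score band from 26 to 50 neither new nor overlapped windows held it (0 of 132 and 0 of 203), and from 51 to 100 the shares were 1.3% and 1.52%. The full ZNF143 motif searched, which contains the core, was in 1 window, that of Dnajb13, against 1.27% and 0.286%. Dnajb13 held ACTACAA at -48 and at -212, and Steap3, a metalloreductase of score 14, held it once.
Dnajb13: gatggaaagACTACAAttcccaggg
Dnajb13: tgttgcaccACTACAAccggctttg
Steap3: ttcctccacTTGTAGTgcagggcgg
The first of these sites is that at -48, and the capitals mark the core.

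Other motifs common in CpG-rich promoters were less frequent in windows of new than of overlapped peaks over all scores. Their intervals overlapped in the bands of score given below, and for some of these motifs over all scores too. The ETS motif CCGGAAGT was in 5.28% (2.99 to 8.56) against 11.9% (10.8 to 13), with 3.89% of all windows. In the bands from 26 to 50, 51 to 100 and 101 to 198 it was in 6.06%, 3.9% and 15.8% of new windows and in 5.91%, 5.42% and 7.02% of overlapped ones, and each pair of intervals overlapped. The YY1 motif was in 0 of 284, with an upper bound of 1.29%, against 1.92%. The NRF1 motif was in 0.704% (0.0854 to 2.52) against 2.58% (2.08 to 3.15). The cyclic AMP response element TGACGTCA was in 1.41% (0.385 to 3.57) against 3.74% (3.13 to 4.41). For the NRF1 motif and TGACGTCA the intervals thus overlapped over all scores. The E2F motif TTTCCCGC was in 0.352% (0.00891 to 1.95) against 2.52% (2.03 to 3.09). In the band from 26 to 50 the YY1 motif was in 0 of 132 and 0 of 203 windows, TGACGTCA in 2.27% and 1.97%, the NRF1 motif in 0 and 1.48%, and TTTCCCGC in 0 and 0.493%, with overlapping intervals. GGGCGG, the GC box, was in 63.4% (57.5 to 69) against 71.9% (70.4 to 73.4), with 35.7% of all windows, and in that band in 60.6% (51.7 to 69) against 70.4% (63.7 to 76.6). CCAAT was in 38.4% (32.7 to 44.3) of new, 37.5% (35.9 to 39.1) of overlapped and 37.4% of all windows. TATAAA was in 7.04% (4.35 to 10.7), 4.58% (3.92 to 5.33) and 13.6%, and the E-box CACGTG in 9.51%, 11.3% and 7.15%. Base composition differs between the groups, and its part in these shares was not tested.

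For scale, 43.9% of the 16506 ERRα-knockdown peaks outside promoters were without an overlapping peak in the other lists, against 12.8% at promoters. In the other direction, 10.8% of the 5787 control promoter peaks overlapped nothing in either knockdown list, and 4.29% of the 3638 HCFC1-knockdown promoter peaks overlapped nothing in the other lists. Neither knockdown list held a peak more than 20 kb from a start site, whereas the control list held 10630, so the lists do not cover the same distances. Peaks at promoters lie inside that limit, but the shares of genes with another control peak counted control peaks at any distance.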

How the data were processed

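HCFC1 ChIP-seq peak lists of 3 libraries, 1 per siRNA condition, were used as the authors deposited them, with coordinates on mm10. HOMER 4.11.1, MACS2 2.1.1.20160309, Picard 2.0.1 and BWA 0.7.12 are listed in the processing notes of the submitters, with no role or order. The peak score is a deposited value whose scale and normalization are not given in the sources used here, and the sequencing depth is unknown. Scores were therefore ranked within a list. Medians of different lists were set side by side as a description, without a test. Each list annotates a peak with a label, a gene, a gene type and a distance from its centre to the nearest transcription start.

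Overlap was counted from 1 bp, width is end minus start, and gaps were measured between peak edges. Promoter windows of 300 bp came from RefSeq (GRCm38.p6), because no genome was used. They stand in place of windows centred on the peaks, and a window entered only if the start of the peak's own gene lay in the peak. A window could reach beyond its peak, and chromosome 18 had no windows. The 13 motifs were searched on both strands. Overlap, gap and motif code was tested on simulated data. Shares carry exact Clopper-Pearson 95% intervals (python 3.11.15, scipy 1.17.1). No p-value was computed, since each condition had 1 library.

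Members, 23 gene lists and motifs were chosen with earlier results of these data known. Genes were named by rank: the 15 highest scores, the 5 nearest to and farthest from control peaks, the 5 just outside, the 5 with the strongest control peak elsewhere, the 5 highest non-coding genes, genes with several new peaks, and listed genes with a new peak. A score limit of 50 was added as an alternative after the data were seen, as were groups by gene description.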

Additional observations from a re-analysis of the deposited data

How the results depend on the processing

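Each of 8 summary values was recomputed under 9 alternatives. Of the 72 values, 28 stayed within 1.5 times the main count, or within the 95% interval of the main share or median, and 44 moved further. For a median this interval came from the ranked values and is narrower than the spread of the peaks. With a reciprocal overlap of 50% the new peaks numbered 1653 (30.8% of promoter peaks), their gene had another control peak in 57.8% and a control promoter peak in 9.33%, and their median score, width and CpG-rich share were 60, 741 bp and 70.8%. With centres within 200 bp counted as shared there were 2064 (38.4%), with 57.9%, 7.42%, 91.2% protein-coding, 101, 1145 bp and 76.1%. Peaks of the other lists within 500 bp counted as shared left 9.69% new, with 56.4% and 6.92%. Lacking only a control peak gave 14.96%. Taking all peaks within 1000 bp of a start gave 1410 peaks, 26.3% of them with a control promoter peak of the gene. The higher-scoring 50% of the list gave 123 peaks (2.9%), with 52.8%, 5.69%, 91.9% protein-coding, 79, 669 bp and 68.5%. Lists shortened to 12610 peaks each gave 11.9% new, with 21.9%, 3.19%, 91.6% protein-coding, 71, 710 bp and 74.7%. A score of at least 50, added after the data were seen, left 183 peaks (4.12%), with 60.7%, 8.74%, 90.7% protein-coding, 66, 575 bp and 67.7%. Each alternative selects a different set of peaks by construction. The depth of the libraries is unknown, so a weak control peak below the calling threshold cannot be told apart from none. No paired analysis was possible because each condition had 1 library and no test was made.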

Other observations

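Groups formed from words in the gene descriptions, chosen after the data were seen, showed some further genes. Interferon and histocompatibility genes took 6 new peaks (0.876%, exact Clopper-Pearson 95% interval 0.322 to 1.9) against 0.219% (0.105 to 0.402) of promoter peaks overlapped by a control peak, with overlapping intervals. The 6 were H2-Q1 (score 51), H2-Q4 (35), H2-Q2 (20), Irf9, Igtp and Ifitm5. The H2-Q genes are close copies of each other, so the placement of their reads is uncertain. G protein-coupled receptors took 9 (1.31%, 0.602 to 2.48) against 0.285% (0.152 to 0.486), among them the bile acid receptor Gpbar1 (score 62). Genes described by cilia or flagella took 7 (1.02%, 0.412 to 2.09) against 0.525% (0.337 to 0.781), with overlapping intervals, namely Rpgr, Cfap100, Cfap54, Cfap126, Bbs4, Lca5 and Drc1. Genes described as mitochondrial took 3 (0.438%, 0.0904 to 1.27) against 2.45% (2.02 to 2.94). Predicted genes and RIKEN cDNAs took 7.74% (5.85 to 10) against 4.69% (4.09 to 5.34). For zinc finger genes the shares were 3.36% (2.14 to 5) and 5.32% (4.69 to 6.01), with overlapping intervals. Intervals also overlapped for ion channels, ribosomal proteins, solute carriers and proteases. These groups were not split by score, and the many overlapped peaks scoring 199 and above had no new peaks beside them.

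Single genes with new promoter peaks and no control peak of the gene, named after their values were seen, included Creb3l3, a liver transcription factor of the fasting response (score 48), F2, prothrombin (score 36), and Hpn, a cell surface protease with 2 new peaks (scores 55 and 31). They stand for no group, since 1 of 37 genes of the hepatocyte list (2.7%) had a new promoter peak, the same share as of all protein-coding genes (2.7%). The imprinted non-coding gene H19 had a new peak of score 43 centred at -825 bp from its start, no control peak of the gene, and a peak of the gene in the HCFC1-knockdown list.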
